A study of Homo sapiens with 6 samples.

Results

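A set of 10 genes of cellular iron handling was followed across the siUSP43 and siNC libraries of T24 cells: TFRC, STEAP3 and SLC11A2 for uptake, FTH1, FTL and NCOA4 for storage and its release, SLC40A1 for export, and ACO1, IREB2 and FBXL5 for regulation. They were chosen by gene symbol, each symbol matched 1 row, and they make up 10 of the 63241 genes in the deposited table. T24 is an established human bladder cancer cell line. The tested cells were transfected with small interfering RNA against USP43, a deubiquitinating enzyme (siUSP43, genotype given as USP43 knockdown, 3 libraries), and the controls with a control small interfering RNA (siNC, genotype given as WT, 3 libraries). Both groups were grown in RPMI medium with fetal bovine serum, and no iron salt, iron chelator or drug is named for either. The series asked how USP43 bears on lipid metabolism in bladder cancer, and its title names cholesterol, E2F1 and gemcitabine resistance. The labels do not say how long after transfection RNA was taken, whether the 3 siUSP43 libraries received the same duplex, or whether the libraries of a group were grown apart. The p-values therefore reflect the scatter among these 6 libraries alone, which could be technical.

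Cells take up iron bound to transferrin through the transferrin receptor, reduce it in the endosome, pass it to the cytosol, and store the surplus inside ferritin, a hollow shell built from heavy and light chains. The amounts of these proteins are set largely after transcription. When iron is scarce, the iron regulatory proteins encoded by ACO1 and IREB2 bind a short hairpin, the iron-responsive element, in certain mRNAs. Bound in a 5′ UTR, as in ferritin mRNA, they block translation, and bound in the 3′ UTR of the transferrin receptor mRNA they protect it from decay. Sequencing of total mRNA therefore sees transcript levels, in which synthesis and decay are not told apart. Ferritin translation and all protein levels were not analysed here.

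The hairpins are shown because they are the feature that links storage, export and uptake mRNAs among the 10 genes. A search of the UTRs of protein-coding transcripts in GENCODE release 29 (GRCh38) looked for a C, any 5 bases, the loop CAGTGN and 5 more bases, with the 5 bases on the left of the loop able to pair with the 5 on its right (G with T included), on the mRNA strand. Such a match lay in 159 of 19666 genes (0.8085%), and on the opposite strand in 154 genes (0.783%), so a match is a description and not by itself a site. Matches were found in FTH1, FTL, SLC40A1 and TFRC, and none of this form in the other 6 genes. Each is written 5′ to 3′ on the mRNA strand as 30 bases, with T for U and the CAGTGN loop in capitals.
FTH1, 5′ UTR, chr11:61967573-61967602, minus strand: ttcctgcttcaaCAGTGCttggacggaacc
FTL, 5′ UTR, chr19:48965335-48965364, plus strand: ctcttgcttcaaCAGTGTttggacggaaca
SLC40A1, 5′ UTR, chr2:189580660-189580689, minus strand: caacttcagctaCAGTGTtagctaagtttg
TFRC, 3′ UTR, chr3:196050978-196051007, minus strand: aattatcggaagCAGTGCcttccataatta
TFRC, 3′ UTR, chr3:196050574-196050603, minus strand: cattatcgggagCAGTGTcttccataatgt
TFRC, 3′ UTR, chr3:196050509-196050538, minus strand: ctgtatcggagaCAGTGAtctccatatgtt
TFRC, 3′ UTR, chr3:196050462-196050491, minus strand: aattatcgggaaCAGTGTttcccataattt
The 2 ferritin hairpins have the same 5 bases on either side of the loop and differ in its last base, while the 4 of TFRC lie close together in its 3′ UTR. Of the 159 genes with a match, 104 passed the filter on low values, and 42 of them rose (40.4%) and 36 fell (34.6%), against 28.0% and 28.1% of all tested genes by the same test, an edgeR adjusted p under 0.05. These shares are a description, and the difference from all genes was not tested.

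The libraries held 21430574 to 25577200 gene counts. USP43 fell by 1.40 on the log2 scale (SE 0.14), with 1.02, 0.67 and 0.80 FPKM in siUSP43 against 2.36, 2.09 and 2.08 in siNC (FPKM is the fragment count scaled to exon length and to the library's total). Of 15 urothelial and epithelial markers 6 reached a mean of 1 FPKM: the keratins KRT7, KRT8, KRT18 and KRT19 and the transcription factors FOXA1 and PPARG. FOXA1 averaged 2.85 FPKM in siUSP43 and 6.67 FPKM in siNC, and PPARG 2.74 FPKM in siUSP43 and 1.92 FPKM in siNC. KRT7 averaged 183.8 FPKM in siUSP43 and 235.9 in siNC, and KRT19 9.37 in siUSP43 and 12.03 in siNC. KRT8 averaged 96.93 FPKM in siUSP43 and 88.03 in siNC, and KRT18 215.8 in siUSP43 and 197.5 in siNC. The KRT18 values of the groups overlapped. EPCAM, below that mean, averaged 1.237 FPKM in siUSP43 and 0.587 FPKM in siNC. The markers UPK1A, UPK1B, UPK2, UPK3A and GATA3 were at most 0.46 FPKM in every library and KRT20 and KRT5 had no count. CDH1 was at most 0.02 FPKM in every library. Erythroid marker genes summed to 0.05 to 0.12 FPKM in siUSP43 and 0.09 to 0.18 in siNC, and macrophage markers to 0.57 to 0.67 in siUSP43 and 1.00 to 1.34 in siNC. None of the 8 genes in either list reached a mean of 1 FPKM. CD14 made up most of the macrophage sum, with 0.41, 0.43 and 0.56 FPKM in siUSP43 and 0.89, 1.06 and 0.91 FPKM in siNC, while PTPRC, AIF1 and FCGR3A were at or near 0 (at most 0.01 FPKM). Of 6 hepatocyte markers, TTR, CPS1 and SERPINA1 reached it and APOA1 and HAMP had no count. Their sum was 16.97 to 17.3 FPKM in siUSP43 and 36.5 to 45.8 FPKM in siNC. TTR averaged 0.0067 FPKM in siUSP43 and 10.05 in siNC, and SERPINA1 14.1 in siUSP43 and 26.8 in siNC. CPS1 went the other way, with 3.00 FPKM in siUSP43 and 2.74 in siNC. The part of the cell type markers in the results was not tested. In bulk RNA, fewer cells with a transcript and less of it per cell cannot be told apart.

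Of the 10 genes, 9 passed the filter on low values (a mean of at least 1 FPKM over the 6 libraries), and SLC40A1 did not. Under siUSP43, TFRC, IREB2 and FBXL5 rose, FTH1, FTL, STEAP3, SLC11A2 and ACO1 fell, and NCOA4 did not pass the test (edgeR quasi-likelihood test, Benjamini-Hochberg adjusted p under 0.05 over 11417 tested genes). The background was high: 56.1% of all tested genes passed, 28.0% higher and 28.1% lower in siUSP43. The FPKM values of the groups did not overlap for 8 of the 9 tested genes, against 62.2% of all tested genes. They were lower in siUSP43 for 5 of these (29.6% of all tested genes) and higher for 3 (32.5%). The median absolute log2 fold change was 0.26 over the 9 genes and 0.24 over all tested genes, so most of the iron genes moved about as much as an average gene. FTH1 had the largest change of the 9. It belonged to the 2.29% of tested genes that fell by a log2 fold change of 1 or more, and 187 of the 11417 had a lower value.

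**Figure D1:**
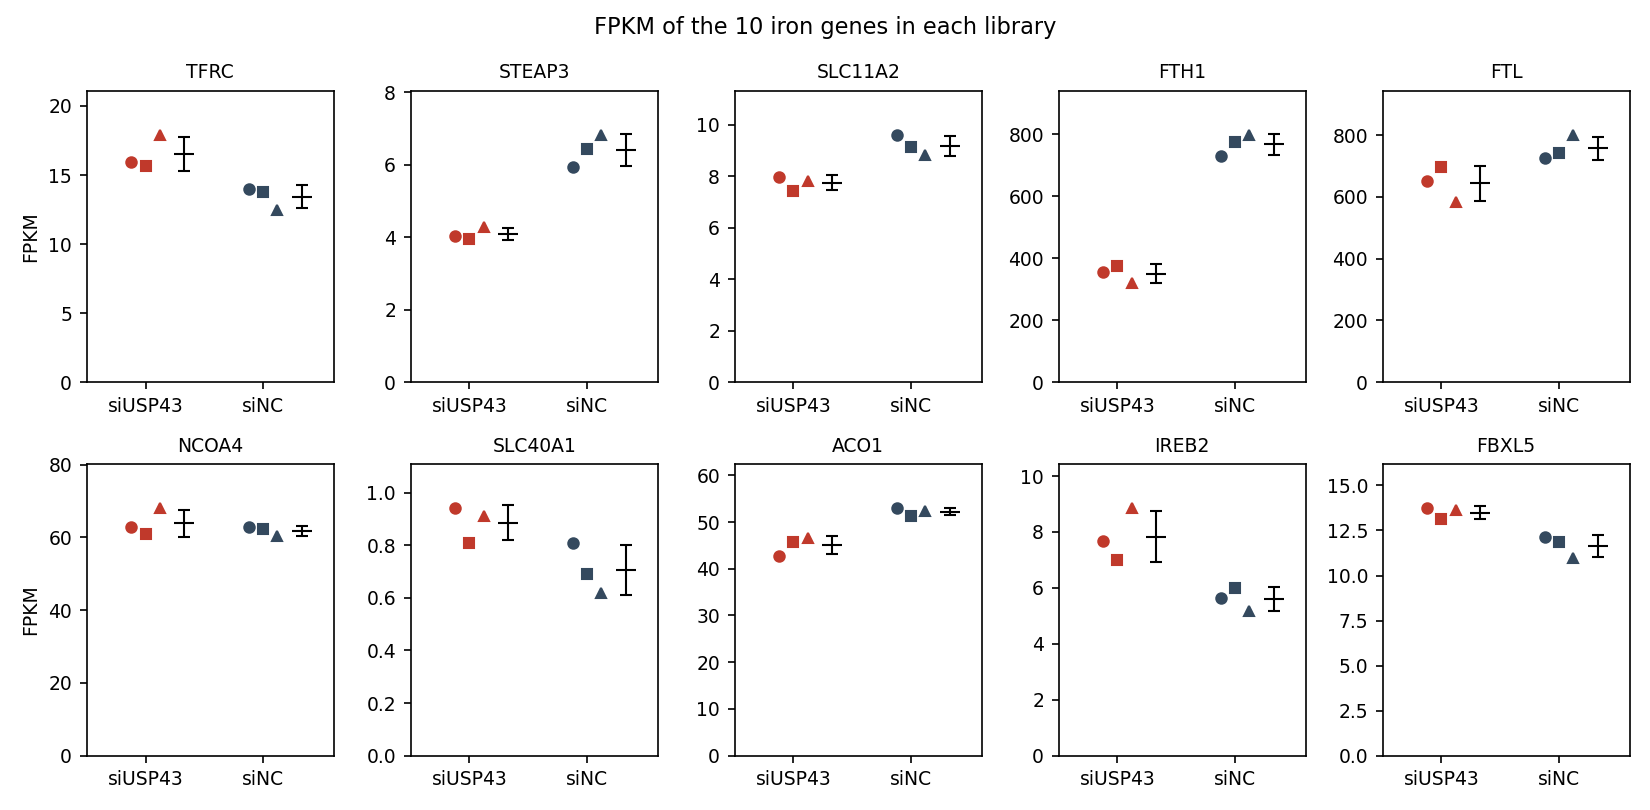
FPKM (y axis, from 0) of each of the 10 genes in the 3 siUSP43 and the 3 siNC libraries, with circle, square and triangle for replicates 1, 2 and 3 and the mean ± SD beside them. The groups do not overlap for any gene except NCOA4 and SLC40A1, and FTH1 shows the widest gap, with 318 to 376 FPKM in siUSP43 and 729 to 797 in siNC.

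**Figure D2:**
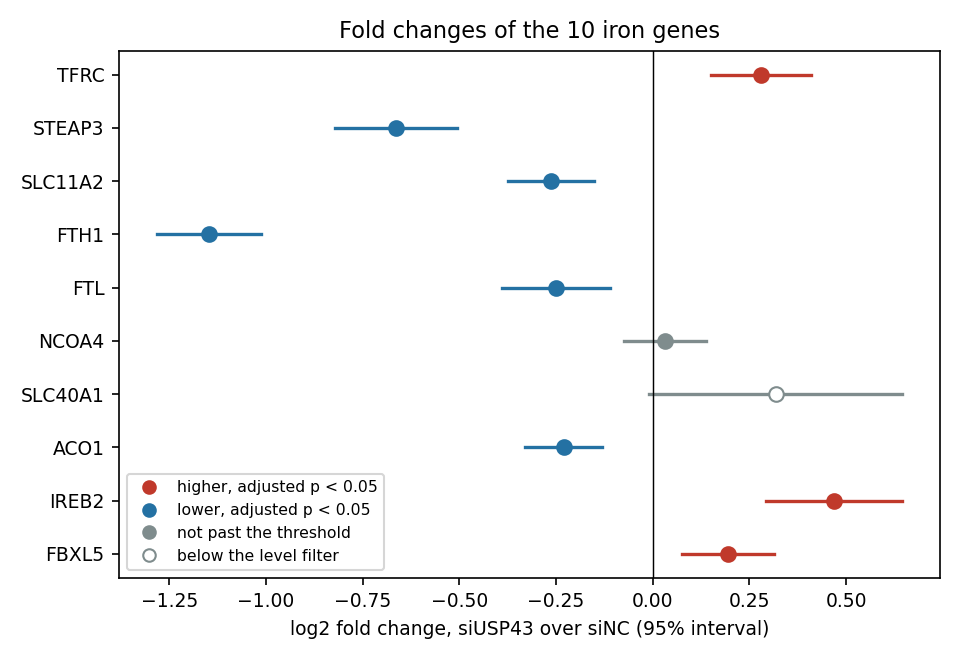
Log2 fold change of siUSP43 over siNC (x axis) with its 95% interval for the 10 genes, in order of role from uptake to regulation. FTH1 lies lowest at -1.15, and the open symbol for SLC40A1 comes from the fit without a filter on low values.

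Among the uptake genes the receptor rose while the endosomal reductase and the exit transporter fell. TFRC (ENSG00000072274, GRCh38 chromosome 3, 196012511 to 196082153, minus strand) encodes transferrin receptor 1, which brings iron-loaded transferrin into the cell. Its level was 15.96, 15.64 and 17.9 FPKM in siUSP43, against 14.01, 13.8 and 12.5 FPKM in siNC. Every siUSP43 value lay above every siNC value, with siUSP43 replicate 3 the highest and siNC replicate 3 the lowest. The log2 fold change was 0.28 (SE 0.06, edgeR adjusted p = 0.00179), or 22.8% more FPKM.

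STEAP3 (ENSG00000115107, chromosome 2, 119223831 to 119265652, plus strand) encodes a ferrireductase that turns ferric iron released from transferrin into ferrous iron in the endosome. It had 4.04, 3.94 and 4.27 FPKM in siUSP43, against 5.94, 6.43 and 6.82 FPKM in siNC. The groups were well apart, and the siUSP43 libraries lay closer together than those of siNC. STEAP3 fell by 0.66 on the log2 scale (SE 0.07, edgeR adjusted p = 1.19e-05), the second largest change among the 9 genes tested. SLC11A2 (ENSG00000110911, chromosome 12, 50979401 to 51028566, minus strand) encodes DMT1, the transporter that carries the ferrous iron out of the endosome. It had 7.97, 7.41 and 7.83 FPKM in siUSP43 and 9.60, 9.12 and 8.83 FPKM in siNC, again without overlap. Its log2 fold change was -0.26 (SE 0.05, edgeR adjusted p = 8.75e-04). Some SLC11A2 transcripts carry an iron-responsive element of another shape and others do not, and the table, which has 1 value per gene, does not separate them.

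The storage genes gave the largest change. FTH1 (ENSG00000167996, chromosome 11, 61959718 to 61967634, minus strand) encodes the ferritin heavy chain, whose ferroxidase centre oxidises iron before it is laid down in the shell. It had 356, 376 and 318 FPKM in siUSP43, against 729, 774 and 797 FPKM in siNC. The highest siUSP43 library was thus well under the lowest siNC library. FTH1 averaged 350 ± 29.3 FPKM in siUSP43 and 767 ± 34.7 FPKM in siNC (SD, n = 3 each), a ratio of 0.457. The log2 fold change was -1.15 (SE 0.06, 95% interval -1.28 to -1.01, edgeR adjusted p = 5.39e-08), and it lay between -1.20 and -1.08 over all alternatives tried.

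FTL (ENSG00000087086, chromosome 19, 48965309 to 48966879, plus strand) encodes the light chain, which lacks the ferroxidase centre and helps the iron core to form. It had 651, 695 and 585 FPKM in siUSP43, against 728, 743 and 801 FPKM in siNC. The groups did not overlap, and siUSP43 replicate 2 lay closest to the siNC values. FTL fell by 0.25 on the log2 scale (SE 0.06, edgeR adjusted p = 0.0056), with a 95% interval of -0.39 to -0.11 that does not reach that of FTH1. The 2 chains of the same shell thus changed unequally at the mRNA level.

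The ratio of FTH1 to FTL within a library shows this most directly, since library totals cancel in it. It was 0.547, 0.541 and 0.544 in the siUSP43 libraries and 1.00, 1.04 and 0.995 in the siNC libraries, on FPKM. Relative to its mean, the ratio varied less between libraries of a group than either gene alone, with an SD of 0.0034 in siUSP43 and 0.0254 in siNC. It was 46.3% lower in siUSP43, and no test is attached to it. Which chain is the higher depends on the length used, because the table's exonic size of FTH1 is 2004 bases and its principal transcript in GENCODE release 29 has 1229. Scaled to principal transcripts and to all gene counts, FTH1 had 675 ± 56.1 RPKM in siUSP43 and 1487 ± 68.5 RPKM in siNC, and FTL 755 ± 64.7 RPKM in siUSP43 and 893 ± 46.3 RPKM in siNC (SD, n = 3 each). On that scale the ratio of FTH1 to FTL was 0.8998, 0.889 and 0.895 in siUSP43 and 1.65, 1.71 and 1.64 in siNC, so FTL was the higher in every siUSP43 library and FTH1 in every siNC library. By deposited FPKM, FTL was the higher in every siUSP43 library too, while the siNC ratios lay around 1. By FPKM rank among all genes, FTL held place 24 to 25 in siUSP43 and 21 to 24 in siNC, and FTH1 place 52 to 54 in siUSP43 and 22 to 23 in siNC. Together the ferritin mRNAs took 0.149 ± 0.0126% of gene counts in siUSP43 and 0.261 ± 0.0121% in siNC (SD, n = 3 each).

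**Figure D3:**
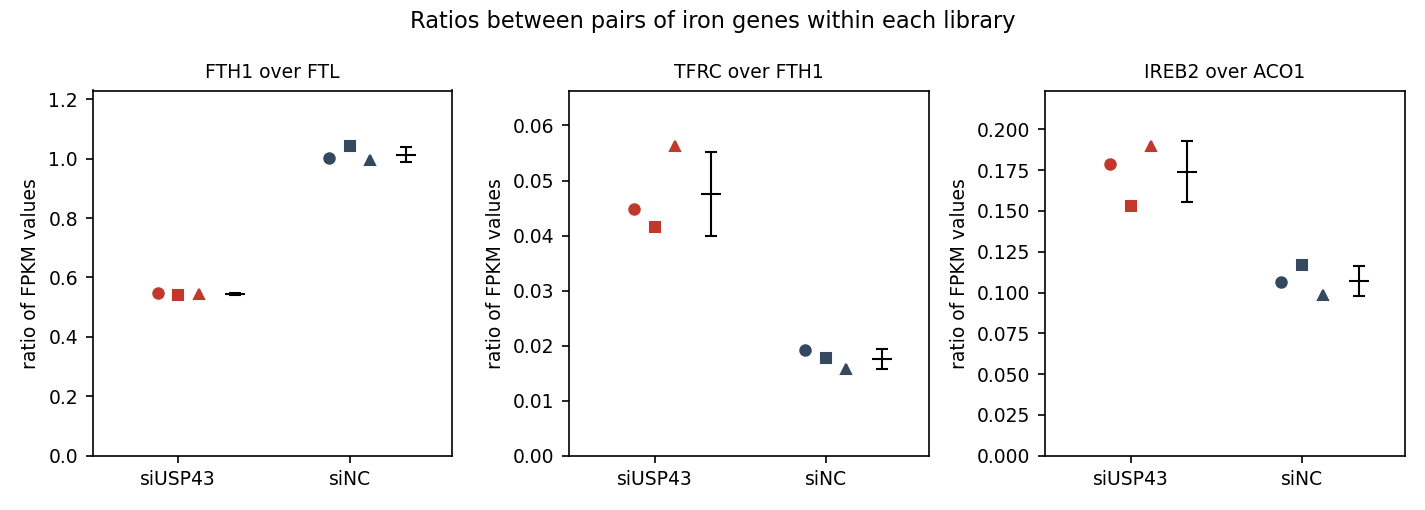
Ratios of FPKM values within each library (y axes, from 0), with symbols for replicates 1, 2 and 3 and the mean ± SD beside them. The ratio of FTH1 to FTL is near 0.54 in all 3 siUSP43 libraries and near 1.0 in siNC, and the other 2 ratios are higher in siUSP43 without overlap.

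Both ferritin genes have many processed copies in the genome, and reads could be divided between them. The table has 25 rows for FTH1 copies and 17 for FTL copies, with FTLP10 repeated among the latter. Of these rows 10 and 13 had no count in any library, those of FTLP10 included. FTH1P2, FTH1P8 and FTH1P7 had the most counts, and their transcripts are 97.1%, 97.5% and 97.3% identical to that of FTH1, with exact shared runs of up to 155, 125 and 150 bases. FTH1P2 had 53, 44 and 44 counts in siUSP43 and 92, 138 and 101 in siNC, and FTH1P8 had 10, 12 and 10 in siUSP43 and 31, 34 and 44 in siNC. Both were lower in siUSP43, like FTH1 (log2 fold changes -1.22 and -1.74, edgeR adjusted p = 2.02e-04 and 3.25e-04), and FTH1P7 was below the filter. Since reads could be divided between parent and copies, the calls of FTH1P2 and FTH1P8 may not be independent of that of FTH1. All FTH1 copies together held 94, 79 and 82 counts in siUSP43 and 184, 231 and 213 in siNC, which was 0.415 to 0.441% of the FTH1 count in siUSP43 and 0.441 to 0.510% in siNC. FTL copies held 10 to 16 counts in siUSP43 and 12 to 20 in siNC. Adding the copies to their parent genes left the log2 fold changes at -1.15 for FTH1 and -0.25 for FTL. How multiply mapped reads were counted is not given, and reads discarded before counting cannot be seen here. The FTH1 and FTL mRNAs share no exact run longer than 18 bases, so reads of one are not readily taken for the other.

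NCOA4 (ENSG00000266412, chromosome 10, 46005088 to 46030623, minus strand) encodes the receptor that carries ferritin to the lysosome, where its iron is released. It had 62.8, 60.9 and 67.95 FPKM in siUSP43, against 62.95, 62.2 and 60.3 FPKM in siNC. The ranges overlapped. The log2 fold change was 0.03 (SE 0.05, edgeR adjusted p = 0.606), with a 95% interval of -0.07 to 0.14, so a change larger than that in either direction lies outside the interval.

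SLC40A1 (ENSG00000138449, chromosome 2, 189560590 to 189583758, minus strand) encodes ferroportin, the iron exporter, and was the least expressed of the 10 genes. It had 119, 86 and 116 counts in siUSP43 and 98, 85 and 77 in siNC, or 0.94, 0.81 and 0.91 FPKM in siUSP43 and 0.81, 0.69 and 0.62 FPKM in siNC. The highest siNC library reached the lowest siUSP43 library. The gene was below the filter. In the fit without a filter its log2 fold change was 0.32 (SE 0.17, 95% interval -0.01 to 0.64, edgeR adjusted p = 0.187), and with edgeR's own expression filter it was 0.32 as well (95% interval 0.0029 to 0.64, unadjusted p = 0.0482, edgeR adjusted p = 0.0889). It passed the adjusted threshold in neither fit.

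The genes of the iron regulatory proteins moved in opposite directions. ACO1 (ENSG00000122729, chromosome 9, 32384603 to 32454769, plus strand) encodes cytosolic aconitase, which becomes iron regulatory protein 1 when it loses its iron-sulphur cluster. It had 42.8, 45.7 and 46.6 FPKM in siUSP43, against 52.9, 51.4 and 52.4 FPKM in siNC. The groups did not overlap, and the siNC values lay close together. ACO1 fell by 0.23 on the log2 scale (SE 0.05, edgeR adjusted p = 0.00112).

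IREB2 (ENSG00000136381, chromosome 15, 78437431 to 78501453, plus strand) encodes iron regulatory protein 2, which has no aconitase activity and is degraded when iron is plentiful. It had 7.66, 7.01 and 8.84 FPKM in siUSP43, against 5.64, 6.0 and 5.16 FPKM in siNC. The lowest siUSP43 library lay above the highest siNC library, and siUSP43 replicate 3 was the highest of all. IREB2 rose, with a log2 fold change of 0.47 (SE 0.08, edgeR adjusted p = 4.07e-04), the largest increase of the 9 genes tested. The ratio of IREB2 to ACO1 was 0.179, 0.153 and 0.190 in siUSP43 and 0.107, 0.117 and 0.0985 in siNC, without overlap, and ACO1 stayed the more abundant mRNA in every library.

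FBXL5 (ENSG00000118564, chromosome 4, 15604381 to 15681679, minus strand) encodes the iron-binding F-box protein that marks iron regulatory protein 2 for degradation. It had 13.72, 13.11 and 13.66 FPKM in siUSP43, against 12.15, 11.86 and 10.97 FPKM in siNC, without overlap. It rose, with a log2 fold change of 0.20 (SE 0.05, edgeR adjusted p = 0.00893), the smallest change that passed, and without siNC replicate 3 the call ended (0.16, edgeR adjusted p = 0.0525). The 5′ end of FBXL5 overlaps by a few bases that of FAM200B on the other strand, which rose too (log2 fold change 0.79) and had 39.9% of the FBXL5 count. Because strand use was not stated, reads in the shared bases cannot be assigned. The other 9 genes overlap no tested gene.

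The libraries of a group also differed in several of the genes at once. In siUSP43, replicate 3 had the lowest FTH1 and FTL and the highest TFRC, IREB2, NCOA4, STEAP3 and ACO1. In siNC, replicate 3 had the highest FTH1, FTL and STEAP3 and the lowest TFRC, IREB2, NCOA4, SLC11A2, SLC40A1 and FBXL5. STEAP3 was thus highest in replicate 3 of either group, and ACO1 was neither highest nor lowest in siNC replicate 3. The ratio of TFRC to FTH1 was accordingly 0.0448, 0.0416 and 0.0562 in siUSP43 and 0.0192, 0.0178 and 0.0157 in siNC, a mean 2.70 times as high in siUSP43. These are 3 libraries each and carry no test. These libraries differed over all genes too. Between siUSP43 replicate 3 and the others of its group, chi-square over its degrees of freedom was 8.70 and 15.1, and 4.005 between those others. For siNC replicate 3 and the others of its group it was 5.54 and 4.63, and 2.29 between those others. The part of this in the spread of the iron genes was not tested. Without siUSP43 replicate 3 the log2 fold changes were 0.22 for TFRC, 0.37 for IREB2, -1.08 for FTH1 and -0.19 for FTL, all still past the threshold. Without siNC replicate 3 they were 0.235, 0.42, -1.11 and -0.20 in the same order, also past it.

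Levels can be compared between genes only per length, and the length used matters for TFRC. Its exonic size in the table is 17376 bases, whereas the principal transcript TFRC-201 in GENCODE release 29 has 5111. By deposited FPKM the order in siUSP43 was FTL, FTH1, NCOA4, ACO1, TFRC, FBXL5, IREB2, SLC11A2, STEAP3 and SLC40A1. In that order IREB2 (7.84 ± 0.93 FPKM) and SLC11A2 (7.74 ± 0.29) did not differ beyond their spread. In siNC, FTH1 (767 ± 34.7 FPKM) and FTL (757 ± 38.5) did not differ beyond their spread, and the ranges of STEAP3 (6.4 ± 0.44) and IREB2 (5.60 ± 0.42) overlapped, though STEAP3 was the higher in each library, with SLC11A2 above both. Scaled to the principal transcript, TFRC came to 66.3 ± 4.95 RPKM in siUSP43 and 54.3 ± 3.25 RPKM in siNC. On that scale ACO1 had 53.9 ± 2.32 RPKM in siUSP43 and 62.8 ± 0.969 RPKM in siNC, so the order of the 2 genes differed between the groups. The fold changes do not depend on the length used.

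Beyond the 10 genes, 122 other genes of iron metabolism were listed by role, of which 97 were tested, 24 rose and 35 fell. Their share past the test, 60.8%, was close to the 56.1% of all tested genes, and their median log2 fold change was -0.07 against -0.01. PCBP1 and CISD2 among them changed more than any of the 10. HMOX1 did so only within its SE (log2 fold change -1.16, SE 0.08, against -1.15 for FTH1). PCBP1, a cytosolic chaperone that hands iron to ferritin, had 12.5, 12.1 and 11.8 FPKM in siUSP43 against 47.8, 48.3 and 49.5 FPKM in siNC. That is a log2 fold change of -2.01 (SE 0.06, edgeR adjusted p = 3.76e-10), and 19 of the 11417 tested genes had a lower one. PCBP1-AS1, an antisense gene below the filter, overlaps it with 18.0% as many counts. Of the 9 tested genes for storage, chaperones and ferritinophagy 2 rose and 2 fell (22.2% each, against 28.0% and 28.1% of all tested genes). PCBP2, a related chaperone, fell by 0.18 on the log2 scale, but its call was lost on leaving out siNC replicate 1 or 3 (-0.18 and -0.16) and with limma on log2(FPKM + 0.1) (-0.17), and without siUSP43 replicate 3 it was -0.12. PCBP4 rose by 0.70, though its gene span overlaps those of ABHD14B and ABHD14A. TAX1BP1, an autophagy receptor that takes part in ferritin turnover, rose by 0.25. The spans of PCBP2, PCBP4 and TAX1BP1, introns included, each overlap that of a tested gene. Shared exons were not looked for, so whether reads were divided between the genes is not known.

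Genes for other routes of iron entry and movement were mostly lower. Of 13 tested, 9 fell and 1 rose, where 28.1% of all tested genes fell, and the median log2 fold change was -0.35. CYBRD1, a ferrireductase, had 13.6 ± 1.63 FPKM in siUSP43 and 18.9 ± 0.677 FPKM in siNC (SD, n = 3 each), and its log2 fold change was -0.49. SLC25A37, the mitochondrial iron importer mitoferrin 1, fell by 0.48, and SLC39A8 and SLC39A14, transporters of iron not bound to transferrin, by 0.44 and 0.29. SNX3, which recycles the transferrin receptor in developing red cells of mouse and zebrafish, rose by 0.16, but not past the threshold once siNC replicate 2 was left out (0.14). Transferrin itself (TF) and TFR2 had 2 and 6 counts over all 6 libraries.

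Haem genes were mixed, with 5 that rose (23.8%) and 7 that fell (33.3%) of 21 tested, against 28.0% and 28.1% of all tested genes. HMOX1, haem oxygenase 1, which frees iron from haem, had 8.73, 8.75 and 7.11 FPKM in siUSP43 and 17.6, 18.2 and 18.5 FPKM in siNC. It fell by 1.16 on the log2 scale (SE 0.08, edgeR adjusted p = 3.70e-07), about as much as FTH1. CPOX, coproporphyrinogen oxidase, fell by 0.49 and TMEM14C by 0.22, while FECH, which inserts iron into the porphyrin ring, rose by 0.32 and the mitochondrial transporter ABCB10 by 0.31. SLC48A1, a haem transporter, had a log2 fold change of 0.29, but its groups overlapped. Its call was lost on leaving out any of 4 libraries (siUSP43 replicate 1 or 2, siNC replicate 1 or 2, 0.23 to 0.28). Its gene span, introns included, overlaps those of HDAC7 and RAPGEF3.

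Of 30 tested genes listed under iron-sulphur cluster assembly 8 rose and 8 fell (26.7% each, against 28.0% and 28.1% of all tested genes). The largest decreases were in CISD2 and CISD1, which encode iron-sulphur proteins of the endoplasmic reticulum (CISD2) and the outer mitochondrial membrane (CISD1) and are not assembly factors. CISD2 had 1.78, 2.11 and 1.70 FPKM in siUSP43 against 6.87, 7.14 and 7.18 FPKM in siNC, a log2 fold change of -1.94 (SE 0.08, edgeR adjusted p = 7.66e-09). CISD1 had 4.12, 4.41 and 4.13 FPKM in siUSP43 against 8.29, 9.26 and 9.24 FPKM in siNC, a log2 fold change of -1.10. CIAO2B, a factor of the cytosolic assembly pathway, fell by 0.50, whereas the mitochondrial factors BOLA3 and NUBPL and the ferredoxin FDX1 rose by 0.55, 0.41 and 0.41. The core scaffold ISCU fell by 0.25 and the cysteine desulphurase NFS1 had a log2 fold change of -0.10 that did not pass (edgeR adjusted p = 0.186).

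**Figure D4:**
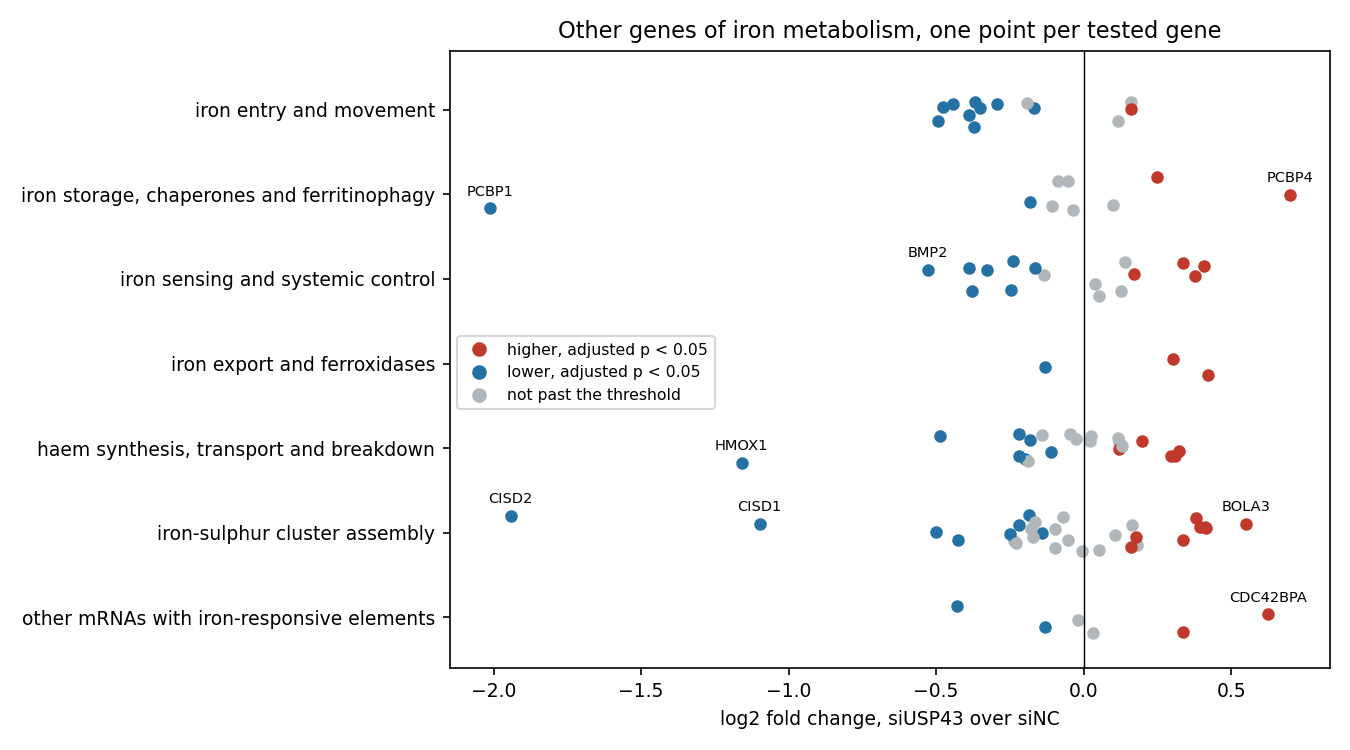
Log2 fold change of siUSP43 over siNC (x axis) for each tested gene of the 7 other lists of iron metabolism (rows, with points spread vertically at random for clarity), coloured by the edgeR call. Most points lie between -0.5 and 0.5, and PCBP1, CISD2, HMOX1 and CISD1 lie below -1.

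Among genes of iron sensing and systemic control 4 rose (25.0%) and 7 fell (43.75%) of 16 tested. The shares over all tested genes were 28.0% and 28.1%. The partners of FBXL5 in its ubiquitin ligase went different ways, with CUL1 rising by 0.41, SKP1 falling by 0.24 and RBX1 at -0.13 without passing (edgeR adjusted p = 0.129). BMP2, the receptor gene ACVR1 and SMAD1 of the bone morphogenetic protein route fell by 0.53, 0.38 and 0.39 (BMP2 by 0.28 with limma on log2(FPKM + 1)), while the receptor genes BMPR1A and BMPR2 rose by 0.38 and 0.34. HAMP, which encodes the hormone hepcidin, had no count in any library. Of the 3 tested genes listed under export 2 rose (66.7%) and 1 fell (33.3%). Over all tested genes 28.0% rose and 28.1% fell, and shares of 3 genes are coarse. NEDD4L rose by 0.30 and RNF217, a ubiquitin ligase that degrades ferroportin in mouse, by 0.42 (0.27 with limma on log2(FPKM + 1)). APP fell by 0.13, and its call was lost when siUSP43 replicate 1 (-0.11) or any one siNC library (-0.14 to -0.13) was left out.

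Other mRNAs for which iron-responsive elements have been described did not share a direction. Of the 6 tested, 2 rose (33.3%), 2 fell (33.3%) and 2 did not pass, where 28.0% of all tested genes rose and 28.1% fell. EPAS1, the HIF-2 alpha gene, rose by 0.34 on the log2 scale, with 18.4 ± 1.09 FPKM in siUSP43 and 14.4 ± 0.167 FPKM in siNC (SD, n = 3 each). CDC42BPA rose by 0.62 and CDC14A fell by 0.43 (0.23 with limma on log2(FPKM + 1)), and APP, given above, is the other that fell. PFN2 had a log2 fold change of -0.02 that did not pass (edgeR adjusted p = 0.72).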

How the data were processed

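Gene counts and FPKM were taken from the deposited table, which holds both for each of the 6 libraries, per the file headers. The deposited counts are raw, and the deposited FPKM values are the authors' own, scaled to exonic size and to totals 1.18 to 1.19 times the summed gene counts. Per the submitters' processing notes, cutadapt 2.6 and HISAT2 2.2.1 were used with GRCh38. The counter, strand setting, annotation release and handling of multiply mapped reads are not given in the sources used here. All libraries carry the same batch label.

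Counts were tested with edgeR 4.0.16 in R 4.3.3 (quasi-likelihood, TMM scaling, group as the only term) on genes whose FPKM averaged 1 or more, plus USP43. Calls are two-sided, at a Benjamini-Hochberg adjusted p under 0.05, and fold changes are siUSP43 over siNC. The fit was also run on simulated data in which far fewer genes changed than were called here, so it was not checked at this extent of change. The exact two-sided permutation test for USP43 gave p = 0.1, the smallest that 3 against 3 allows. DESeq2 1.42.0 and limma 3.58.1 on log2(FPKM + 1) and log2(FPKM + 0.1), other scalings and filters, a block for replicate number and the removal of each library in turn were alternatives. The 10 genes and the lists were chosen with earlier results of these data known, so their counts are descriptive and no list was tested as a set. Named were the 10 genes, USP43, the 3 ferritin copies with most counts, up to 3 of the largest increases and decreases past the threshold in each list (not all described), 5 genes fixed by name, and genes added after their values were seen (ISCU, NFS1, SKP1, RBX1, PFN2, TF, TFR2, HAMP, FAM200B and the cell type markers). RPKM was computed here from the deposited counts, principal transcript lengths and summed gene counts. UTR matches used GENCODE release 29 transcripts.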

Additional observations from a re-analysis of the deposited data

How the results depend on the processing

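Over all alternatives the 8 calls among the 10 genes kept their direction, and the count of genes called was 7 to 8 when 1 library was left out (2 to 3 higher, 5 lower) and 8 otherwise, FBXL5 being the only call lost (without siNC replicate 3). NCOA4, never past the threshold, was -0.0049 with upper quartile factors and ran from -0.0152 (without siUSP43 replicate 3) to 0.0633 over the left-out libraries. The cause was not tested. USP43 ran from -1.57 to -1.27 over the left-out libraries and came to -0.80 in the limma fit of log2(FPKM + 1), a scale that shrinks the changes of low genes. All genes called numbered 5428 to 6548 and the other iron genes called 49 to 61 over the left-out libraries. Deviations from the group means correlated at -0.05, -0.19 and -0.39 between same-numbered libraries, and from -0.26 to 0.40 between the other pairs. Deviations from a mean of 3 libraries depend on each other, so these values do not decide whether the numbers pair the libraries. With the replicate number as a block 8 of the 10 genes, 5616 genes in all and 46 of the other iron genes passed, USP43 was at -1.41, and SNX3 and APP lost their calls (0.16 and -0.13). SLC40A1 had the fewest counts of the 10 genes, 77 to 119 per library, and its adjusted p was 0.187 without a filter and 0.0889 with edgeR's own filter.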
